A study of Mus musculus with 6 samples.

Results

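The 10 genes described here carry vascular growth and endothelial cell signals. They were examined in embryonic hearts with a conditional deletion of Wt1, a gene for a zinc finger transcription factor. They were the 4 ligand genes Vegfa, Angpt1, Angpt2 and Apln, the 4 receptor genes Kdr, Flt1, Tie1 and Tek, and the 2 endothelial junction genes Pecam1 and Cdh5. They were taken by gene name as the 10 members among the 46983 genes of the count table, and all 10 were among the 17473 genes that passed a filter on low counts. RNA was sequenced from whole E13.5 hearts of the C57BL/6 x DBA/2 background, with 1 heart for each library, and counted per gene. The 3 mutant hearts (replicates 1, 5 and 10) were labelled TnnT2Cre;Wt1flox and carried Cre under the cardiac troponin T promoter together with homozygous floxed Wt1 alleles. The 3 control hearts (replicates 2, 3 and 5) were labelled wild type, and the study's methods describe them as homozygous for the floxed Wt1 alleles without Cre, so that both groups carried floxed Wt1. This Cre line acts in the cardiomyocyte lineage and, in the study's methods, also in a fraction of proepicardial cells. The study also traced part of the E13.5 epicardium to the troponin T lineage. It reported WT1 strongly in the epicardium and at low levels in a fraction of embryonic cardiomyocytes. Endothelial cells are not the named target of this Cre line. The comparison therefore asked how the 10 genes stood in whole-heart RNA when Wt1 was deleted in the troponin T lineage. Cardiomyocytes are themselves a main source of Vegfa, so not all of the 10 are endothelial transcripts. Whether embryos shared a litter was not given in the sources used here.

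Vascular endothelial growth factor A, the Vegfa product, is secreted by myocardial and other cells and acts on endothelial cells through the tyrosine kinase receptor VEGFR2 (Kdr), while VEGFR1 (Flt1) binds the same ligand with weak kinase output and acts largely as a decoy. Angiopoietin 1 activates the endothelial receptor Tie2 (Tek) and stabilizes vessels, angiopoietin 2 is a context-dependent antagonist made by remodelling endothelium, and Tie1 is a companion receptor without a firmly assigned ligand of its own. Apelin (Apln) marks sprouting endothelial cells and signals through the receptor Aplnr, and PECAM1 and VE-cadherin (Cdh5) hold endothelial cells together at their junctions.

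The promoters of both VEGF receptor genes are shown because each held a match to a WT1 binding motif, WT1 being the factor deleted in the mutant. RefSeq (GRCm38.p6) gave 7 promoters for 6 of the 10 genes, each running from 250 bases before to 50 bases after a transcription start. Angpt1, Angpt2, Cdh5 and Pecam1 had no entry in that table. Flt1 lies at chr5:147725962-147726261 and Kdr at chr5:75978406-75978705, both on the minus strand, and the sequences read 5′ to 3′ along that strand with matches in capitals.
Flt1: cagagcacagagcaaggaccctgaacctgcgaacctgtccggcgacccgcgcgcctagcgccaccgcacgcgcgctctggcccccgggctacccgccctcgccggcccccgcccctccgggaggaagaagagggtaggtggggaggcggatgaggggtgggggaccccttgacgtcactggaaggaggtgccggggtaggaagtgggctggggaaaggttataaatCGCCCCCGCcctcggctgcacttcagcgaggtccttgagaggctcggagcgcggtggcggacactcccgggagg
Kdr: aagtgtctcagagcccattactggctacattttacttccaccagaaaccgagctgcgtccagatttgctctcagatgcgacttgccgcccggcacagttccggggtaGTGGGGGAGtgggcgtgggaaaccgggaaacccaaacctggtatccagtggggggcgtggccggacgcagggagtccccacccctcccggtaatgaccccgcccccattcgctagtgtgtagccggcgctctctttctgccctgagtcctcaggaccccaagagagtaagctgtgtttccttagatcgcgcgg
The capitals mark the motif GNGGGGGNG on either strand. The stricter motif GCGGGGGCG, which is contained in the first, was present in 1 of the 7 promoters, Flt1, on the opposite strand and starting at base -24 from the transcription start, and in 2.91% of the 32851 mouse promoters searched. The relaxed motif was present in 3 of the 7, in Flt1, in Kdr at base -143 and in Apln, and in 18.8% of all promoters. The ETS motif CNGGAAG, bound by endothelial ETS factors, was found in the promoters of Tie1, Flt1 and Apln and in 31.9% of all promoters. The core of the hypoxia response element, ACGTG, was found in 1 of 2 Vegfa promoters and in 19.6% of all promoters. The Vegfa match was in the entry at 46025114 to 46025413, which lies inside the gene. The entry at the 5′ end of the gene, 46032328 to 46032627, had none. GC made up 70.7% of the Flt1 promoter and 60.7% of the Kdr promoter against a median of 52.7%. A match of letters is a description and no measure of binding.

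In GENCODE M21 (GRCm38) all 10 are protein-coding genes. Vegfa (ENSMUSG00000023951) spans 46016993 to 46032369 on chromosome 17, and its receptors Kdr (ENSMUSG00000062960) and Flt1 (ENSMUSG00000029648) span 75932827 to 75978458 and 147561604 to 147726011 on chromosome 5. Tie1 (ENSMUSG00000033191) at 118471191 to 118490061 and Tek (ENSMUSG00000006386) at 94739289 to 94874976 share chromosome 4. Angpt1 (ENSMUSG00000022309) is on chromosome 15 from 42424723 to 42676977, and Angpt2 (ENSMUSG00000031465) on chromosome 8 from 18690263 to 18741562. Apln (ENSMUSG00000037010) is X-linked, at 48025146 to 48034853. Cdh5 (ENSMUSG00000031871) lies on chromosome 8 from 104101625 to 104144511 and Pecam1 (ENSMUSG00000020717) on chromosome 11 from 106654217 to 106750628. Exons of the opposite-strand gene Gm17473, which had 46 to 77 counts per heart, covered 14.2% of the exon bases of Angpt1, and no other of the 10 had exons overlapped by another gene. The strand setting of the counting was not given in the sources used here, so those reads cannot be told apart from reads of Angpt1.

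Libraries held 44244665 to 56373393 counts, the shallowest being wild type replicate 5. Wt1 itself was at 20.9, 17.3 and 10.2 FPKM in wild type replicates 2, 3 and 5 and at 9.29, 17.2 and 17.4 FPKM in mutant replicates 1, 5 and 10, so the groups overlapped. These counts cover the whole gene in all cell types, so they do not check the labels, and reads from the floxed exon alone were not analysed here. Wild type replicate 5 stood apart, with a Spearman rho of -0.556 between gene length and deviation from the mean of the 6 hearts over 11795 genes, against -0.0622 to 0.464 in the others. Xist, the transcript of the inactive X chromosome, was at 45.3 to 62.8 FPKM in wild type replicate 2 and mutant replicates 5 and 10. It was at 0.0036 to 0.034 FPKM in the other 3 hearts. Ddx3y, a gene of the Y chromosome, was at 0 FPKM in the hearts with Xist and at 26.6 to 30.3 FPKM in the other 3. By these 2 transcripts the hearts with Xist were female and the other 3 male, although the labels do not give sex. For the 10 genes, values without wild type replicate 5 are given where it altered them.

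None of the 10 genes passed the test between mutant and wild type hearts. In edgeR's quasi-likelihood test 0 of 10 had an adjusted p under 0.05, beside 0% of all 17473 genes, and 0 of 10 had an unadjusted p under 0.05, beside 5.73% of all genes. In 0 of the 10 were the groups free of overlap, beside 11.2% of all genes. DESeq2 called 0 of the 10 and 132 genes in all, and limma-voom called 0 of the 10. The median log2 fold change was 0.28 over the 10 genes, 8 of them above 0, and -0.0010 over all genes. That median was 0.12 without wild type replicate 5 and 0.16 with the level of Xist as a covariate. In RNA from whole hearts, fewer cells of a type and less RNA per cell cannot be told apart.

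The endothelial receptor and junction genes were abundant in every heart, with Kdr, Flt1, Tie1, Tek, Pecam1 and Cdh5 at 10.6 to 80.6 FPKM, a unit that divides the count by gene length and by the total count. By mean FPKM over the 6 hearts the order was Vegfa (85.6), Pecam1 (65.6), Tie1 (53.7), Cdh5 (50.6), Tek (45.1), Kdr (26.5), Angpt1 (20.7), Flt1 (19.2), Apln (2.67) and Angpt2 (2.06). The log2 differences of Vegfa to Pecam1, Tie1 to Cdh5, Kdr to Angpt1, Angpt1 to Flt1 and Apln to Angpt2 were smaller than the SD of those differences over the hearts, so these neighbours were not separated. Pecam1 stood above Tie1, Cdh5 above Tek, Tek above Kdr and Flt1 above Apln in all 6 hearts. The gene length behind the FPKM values equalled the annotated exons for Apln and was shorter for the other 9 genes, at 1460 against 4285 bases for Vegfa and 2989 against 13504 bases for Flt1. Per annotated exon base, the order opened with Cdh5, Tie1, Tek and Vegfa, and Apln and Angpt2 stayed last.

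**Figure D1:**
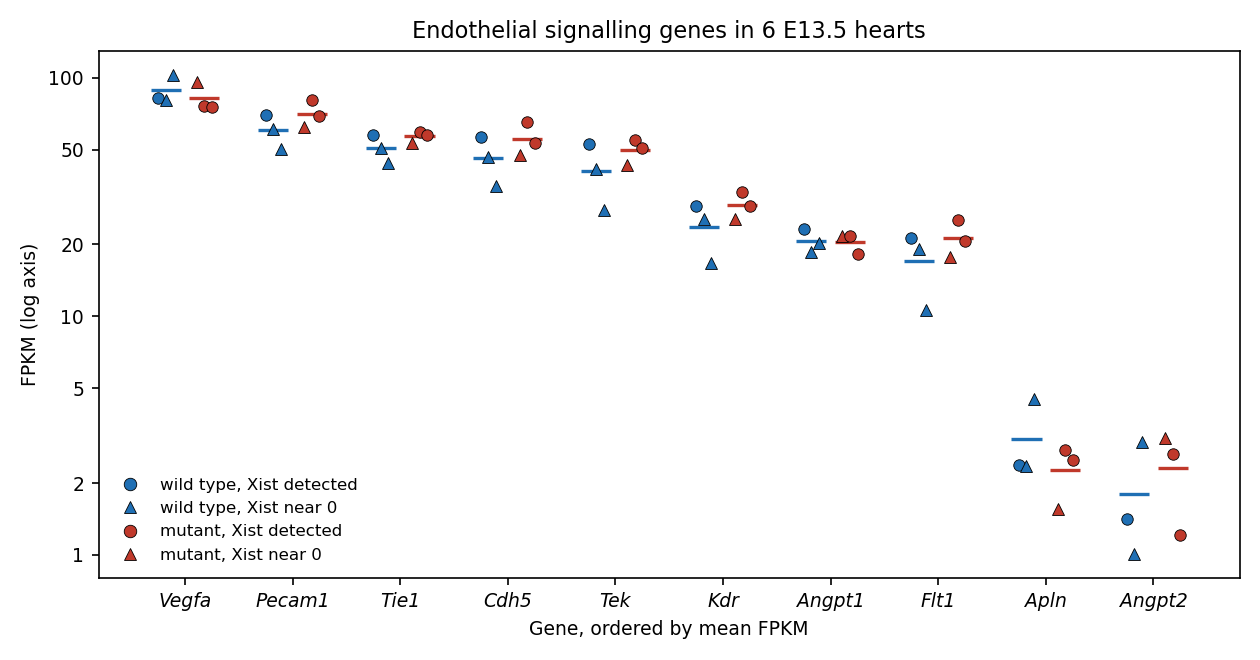
FPKM of the 10 genes (log axis) in each heart, wild type in blue and mutant in red, with circles for hearts with Xist, triangles for hearts with Xist near 0, and lines at group means (n = 3 each). The groups overlap in all 10 genes, and the lowest point of Kdr, Flt1, Tie1, Tek, Pecam1 and Cdh5 is wild type replicate 5 in each case.

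Vegfa, the main angiogenic ligand, was at 82.6, 80.9 and 103 FPKM in wild type replicates 2, 3 and 5 and at 95.5, 76.4 and 75.4 FPKM in mutant replicates 1, 5 and 10. Wild type replicate 5 was the highest heart and mutant replicate 1 came next, both without Xist, and the groups overlapped. Means were 88.8 ± 12.3 FPKM in wild type and 82.4 ± 11.3 FPKM in mutant hearts (SD, n = 3 each), with a log2 fold change of -0.082 ± 0.14 (SE) and an adjusted p of 0.985 in edgeR's quasi-likelihood test. The 95% interval ran from 0.756-fold to 1.18-fold.

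Kdr, the signalling VEGF receptor of endothelial cells, was at 29.0, 25.6 and 16.7 FPKM in the wild type hearts and at 25.5, 33.1 and 29.0 FPKM in the mutant hearts, in the same replicate order. The lowest value was that of wild type replicate 5, and the other 5 hearts lay between 25.5 and 33.1 FPKM. The group means were 23.8 ± 6.32 and 29.2 ± 3.80 FPKM (SD, n = 3), the log2 fold change was 0.33 ± 0.20 (SE) and the adjusted p was 0.956 (edgeR). The 95% interval of the change was 0.916-fold to 1.72-fold. Flt1, the decoy-type receptor, was at 21.3, 19.1 and 10.6 FPKM in wild type and 17.7, 25.4 and 20.7 FPKM in mutant hearts. As for Kdr, wild type replicate 5 was the lowest and mutant replicate 5 the highest heart. The log2 fold change of Flt1 was 0.35 ± 0.25 (SE; adjusted p of 0.976 in edgeR), with a 95% interval of 0.862-fold to 1.89-fold. Counts were summed over the gene, so soluble and membrane-bound Flt1 transcripts were not separated.

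Tie1, the companion receptor of the Tie pathway, was at 57.5, 50.7 and 43.97 FPKM in wild type replicates 2, 3 and 5 and at 53.3, 59.3 and 57.8 FPKM in mutant replicates 1, 5 and 10. It had the narrowest spread of the 6 receptor and junction genes. The log2 fold change was 0.19 ± 0.13 (SE; adjusted p of 0.966 in edgeR), with a 95% interval of 0.937-fold to 1.40-fold. Tek, the angiopoietin receptor, was at 52.5, 41.3 and 28.0 FPKM in wild type and 43.3, 54.8 and 50.7 FPKM in mutant hearts. Wild type replicate 2 lay within the mutant range, and the remaining wild type hearts lay below every mutant heart. Tek had a log2 fold change of 0.32 ± 0.21 (SE; adjusted p of 0.968 in edgeR), with a 95% interval of 0.889-fold to 1.76-fold.

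Of the angiopoietin ligands, Angpt1 was the steadier. Angpt1, the vessel-stabilizing ligand, was at 23.3, 18.6 and 20.4 FPKM in wild type and at 21.6, 21.8 and 18.3 FPKM in mutant hearts. Both groups covered nearly the same range, and the log2 fold change was 0.014 ± 0.11 (SE; adjusted p of 0.996 in edgeR) with a 95% interval of 0.841-fold to 1.21-fold. Angpt2, the antagonist ligand, was at 1.41, 1.01 and 2.97 FPKM in wild type and at 3.11, 2.64 and 1.22 FPKM in mutant hearts, from 120 to 334 counts per heart. In 3 hearts it was at or above 2.64 FPKM and in 3 at or below 1.41 FPKM, with hearts of both groups on each side. The log2 fold change of Angpt2 was 0.38 ± 0.45 (SE; adjusted p of 0.985 in edgeR) with a 95% interval of 0.636-fold to 2.67-fold, the widest of the 10. Without wild type replicate 5 it was 0.96 ± 0.36 (SE; adjusted p of 0.336 in edgeR), whereas leaving out wild type replicate 3 gave 0.092 and leaving out mutant replicate 1 gave 0.14, so its size depended on single hearts.

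Apln, the sprouting-endothelium ligand, was at 2.39, 2.35 and 4.49 FPKM in wild type replicates 2, 3 and 5 and at 1.56, 2.76 and 2.50 FPKM in mutant replicates 1, 5 and 10. Wild type replicate 5 was the highest and mutant replicate 1 the lowest, and the remaining 4 hearts lay between 2.35 and 2.76 FPKM with the groups interleaved. The log2 fold change was -0.40 ± 0.32 (SE; adjusted p of 0.985 in edgeR), with a 95% interval of 0.455-fold to 1.26-fold. Without wild type replicate 5 it was -0.014 ± 0.24 (SE; adjusted p of 0.989 in edgeR), and without mutant replicate 1 it was -0.18. The size of this value thus depended on single hearts, most on wild type replicate 5.

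Pecam1, the platelet and endothelial cell adhesion molecule CD31, was at 70.1, 61.2 and 50.1 FPKM in wild type and at 62.3, 80.6 and 69.3 FPKM in mutant hearts. Cdh5, which encodes VE-cadherin of the adherens junction, was at 56.3, 46.4 and 35.1 FPKM in wild type and at 47.4, 65.5 and 53.2 FPKM in mutant hearts. In both junction genes mutant replicate 5 was the highest and wild type replicate 5 the lowest, and wild type replicate 2 lay within the mutant range. Pecam1 had a log2 fold change of 0.26 ± 0.15 (SE; adjusted p of 0.954 in edgeR) with a 95% interval of 0.940-fold to 1.52-fold. For Cdh5 the value was 0.30 ± 0.19 (SE; adjusted p of 0.966 in edgeR), with a 95% interval of 0.913-fold to 1.66-fold. Pecam1 is also expressed by platelets and macrophages, whose marker genes are given with the marker lists.

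The 6 receptor and junction genes varied together from heart to heart. Over the 6 hearts, Pearson's r of log2 CPM was 0.918 to 0.995 in the 15 pairs of Kdr, Flt1, Tie1, Tek, Pecam1 and Cdh5, and 0.798 to 0.996 without wild type replicate 5. These r values describe 6 libraries that share depth and cell composition between genes and carry no p. Wild type replicate 5 was the lowest heart for all 6, from -0.28 (Tie1) to -0.79 (Flt1) in log2 CPM against the mean of the hearts. With the length trend of every heart removed, those deviations were -0.077 for Tie1 and -0.66 for Flt1, and they were -0.37 for Kdr, -0.47 for Tek, -0.28 for Cdh5 and -0.29 for Pecam1, and the lowest heart for Tie1 was then wild type replicate 3. Other endothelial genes of this heart went both ways, with the tight junction gene Cldn5 at 16.7 FPKM against 5.23 to 7.27 FPKM elsewhere and Egfl7, a secreted endothelial factor, at 134 against 58.8 to 86.4 FPKM. The summed FPKM of the 6 receptor and junction genes was 0.351 of the summed FPKM of 10 other endothelial markers in wild type replicate 5 and 0.479 to 0.585 of it in the other hearts.

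**Figure D2:**
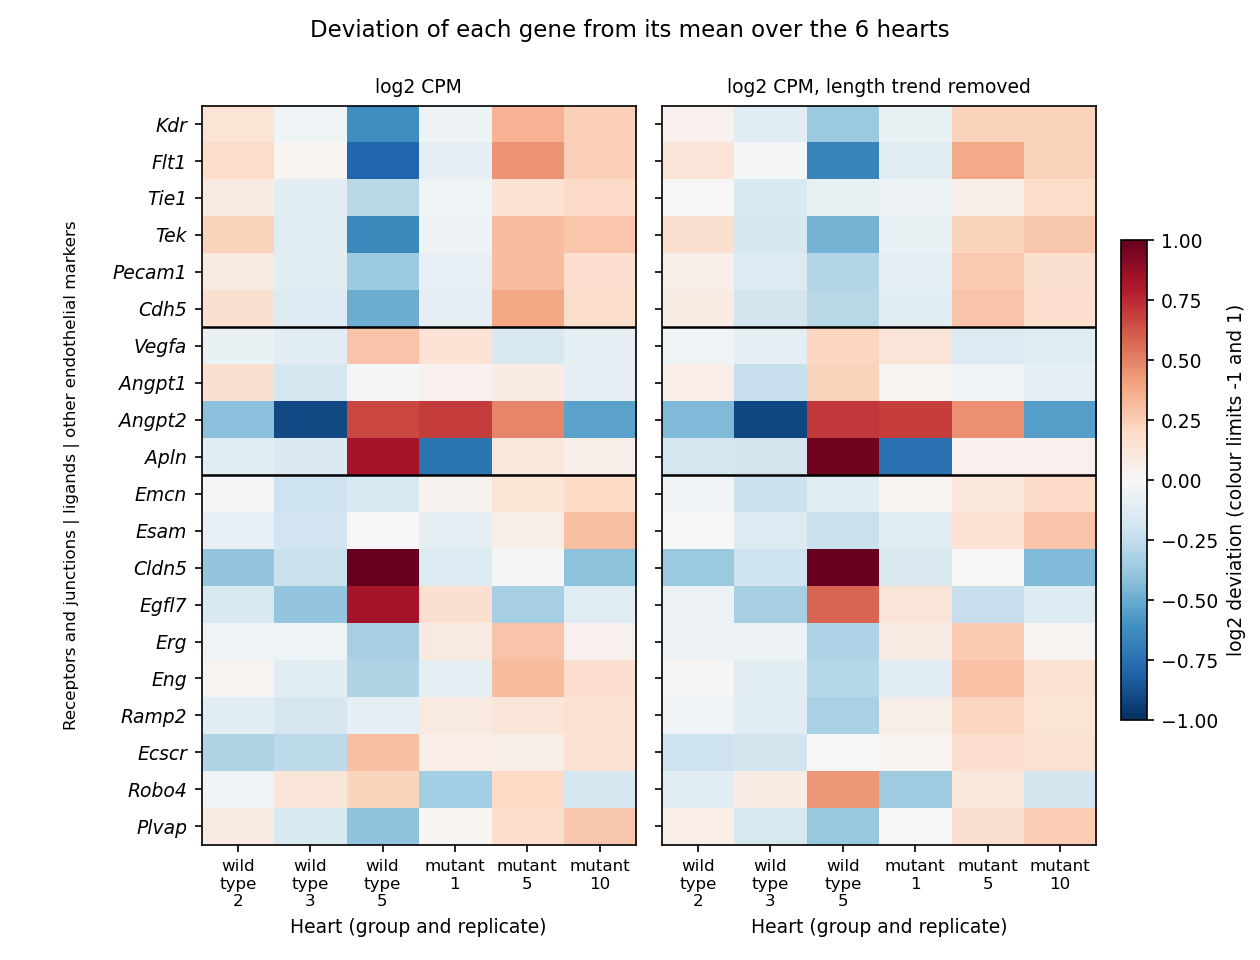
Deviation of log2 CPM of each gene (rows) from its mean over the 6 hearts (columns), as measured (left) and with the length trend of every heart removed (right), in the order receptors and junctions, ligands, other endothelial markers. On the left, wild type replicate 5 is lowest in the 6 upper genes and in none of the 4 ligands, and on both sides Cldn5 and Egfl7 are highest in that heart.

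The same 6 genes also followed Xist. Kdr, Flt1, Tie1, Tek, Pecam1 and Cdh5 were each higher in all 3 hearts with Xist than in any of the 3 without it. The same held for 6.45% of all genes, and 12.4% of all genes were free of overlap in either direction. Because the 6 genes varied together from heart to heart, they are not 6 separate results. The 4 ligands overlapped between these hearts. The difference of mean log2 CPM, hearts with Xist less those without, was 0.58 for Flt1, 0.55 for Tek, 0.48 for Kdr and for Cdh5, 0.38 for Pecam1 and 0.28 for Tie1. Xist was present in 2 of 3 mutant hearts and in 1 of 3 wild type hearts, and wild type replicate 5 was among the hearts without it. Within the hearts with Xist, the mutant to wild type log2 difference of the 6 genes was 0.060 (Tek) to 0.16 (Flt1), and within those without Xist it was 0.16 (Pecam1) to 0.33 (Tek). These comparisons have 1 heart on a side and no test. The part of embryo sex, read from Xist and Ddx3y, in the group difference was not tested beyond the Xist covariate.

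Leaving out single hearts altered the fitted values of the receptor and junction genes jointly. Without wild type replicate 5, the log2 fold changes of Kdr, Flt1, Tie1, Tek, Pecam1 and Cdh5 were 0.11 to 0.15. Without mutant replicate 5 they were 0.16 (Pecam1) to 0.25 (Tek), with Cdh5 at 0.17. Without wild type replicate 2, Kdr (0.49), Tek (0.55), Cdh5 (0.47) and Pecam1 (0.38) had an unadjusted p under 0.05, and all had an adjusted p of 0.835 or more in edgeR. In that fit 1023 of 17894 genes had an unadjusted p under 0.05. The 4 genes varied together from heart to heart, so they are not separate results. With the level of Xist as a covariate 0 of the 10 genes had an unadjusted p under 0.05, beside 779 of 17473 genes.

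**Figure D3:**
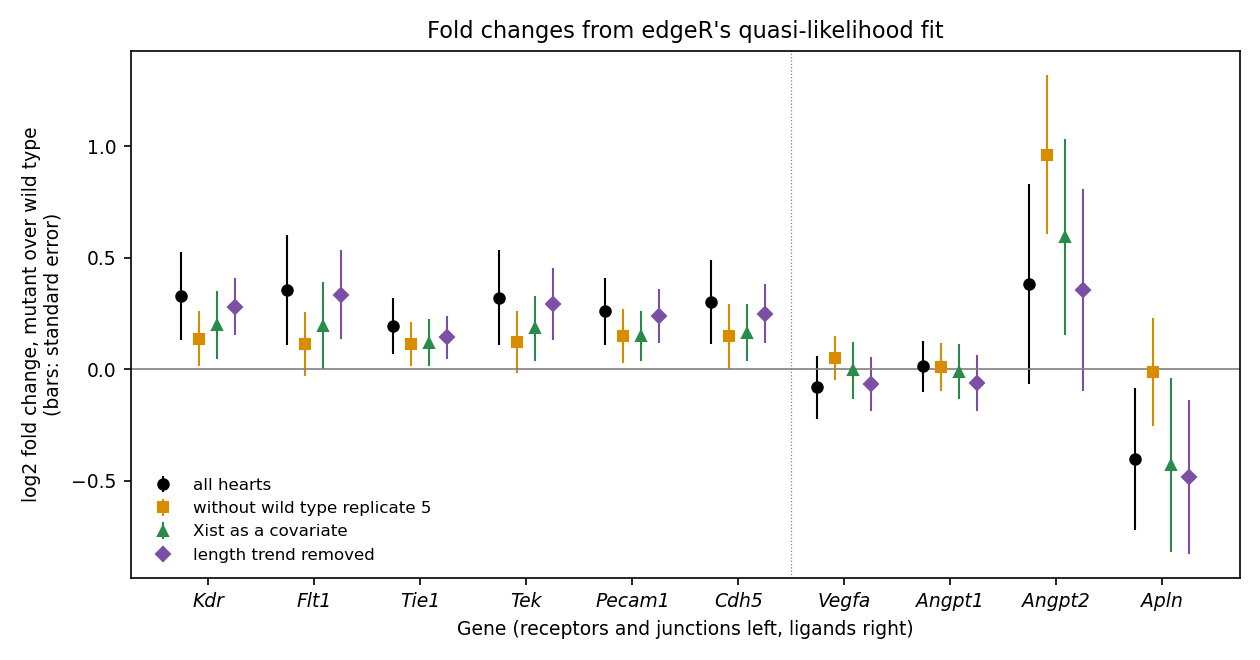
Log2 fold change of mutant over wild type (vertical axis, bars are standard errors) for the 10 genes in 4 edgeR fits. The 6 receptor and junction genes lie at 0.19 to 0.35 with all hearts and at 0.11 to 0.15 without wild type replicate 5, and Angpt2 has the widest bars.

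Ratios within a heart, which do not depend on library size, were compared for 4 gene pairs. Flt1 to Kdr, the balance of decoy to signalling receptor, was 0.737, 0.747 and 0.635 in wild type and 0.697, 0.768 and 0.715 in mutant hearts. It was the steadiest of the 4 ratios, with a log2 difference of 0.042 (exact permutation p = 0.8, adjusted 0.8, two-sided, n = 3 each). Tek to Tie1 was 0.637 to 0.914 in wild type and 0.812 to 0.924 in mutant hearts, a log2 difference of 0.16 (exact permutation p = 0.5, adjusted 0.667) that was 0.012 without wild type replicate 5. Angpt2 to Angpt1, the balance of antagonist to agonist, was 0.0543 to 0.146 in wild type and 0.0664 to 0.144 in mutant hearts, a log2 difference of 0.42 (exact permutation p = 0.5, adjusted 0.667), and 0.87 without wild type replicate 5. Vegfa to Kdr was 6.15 in wild type replicate 5 and 2.31 to 3.75 in the other 5 hearts. Its log2 difference of mutant to wild type was -0.43 (exact permutation p = 0.4, adjusted 0.667) and -0.086 without wild type replicate 5. The ratios were not corrected for gene length, and the length trend of wild type replicate 5 was 0.064 for Vegfa and -0.25 for Kdr in log2 CPM. The smallest p that 3 against 3 hearts allow is 0.1, so no ratio could pass the threshold.

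**Figure D4:**
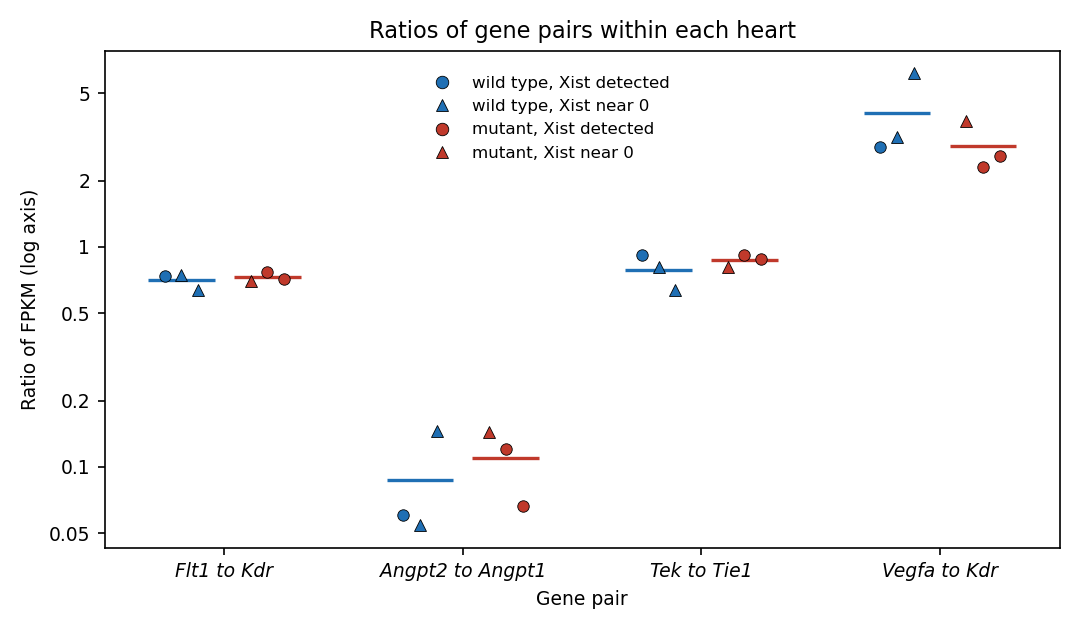
Ratio of FPKM (log axis) for 4 gene pairs in each heart, with colours, symbols and lines at group means as in the plot of the 10 genes. The groups overlap in all 4 pairs, and Vegfa to Kdr is highest in wild type replicate 5 at 6.15.

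Genes with the profile most like the mean of the 6 receptor and junction genes over the 6 hearts, among 11786 genes, were Ncstn, Eml1, Cnot6l, Fgd5 and Grn, with Pearson's r of 0.997 to 0.995. Those most like Apln were Mfsd8 (r of 0.986), Rcor3 (0.977) and Sgce (0.973). These values are a description over 6 libraries and carry no p.

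Around these members, the wider pathways were read from the same fit, and with all 6 hearts no gene of any list passed the threshold of edgeR. In the VEGF system 1 of 14 genes had an unadjusted p under 0.05, close to the 5.73% of all genes, and the median log2 fold change was 0.037, and -0.041 without wild type replicate 5. That gene was Figf, which encodes VEGF-D, a ligand of VEGFR3 in the mouse. Figf was at 2.88, 4.63 and 5.76 FPKM in wild type and at 7.999, 8.27 and 10.1 FPKM in mutant hearts, without overlap. Its log2 fold change was 1.03 ± 0.26 (SE; adjusted p of 0.468 in edgeR and 0.0159 in DESeq2). Vegfc, the other VEGFR3 ligand, had a log2 fold change of -0.14 ± 0.093 (SE; adjusted p of 0.966 in edgeR). The most abundant genes of the list were Vegfb (104 to 117 FPKM) and the adaptor gene Shb (54.0 to 66.6 FPKM), both overlapping between groups. In the angiopoietin-Tie system 1 of 13 genes tested had an unadjusted p under 0.05 and the median was 0.13. It was Tnip2, an inhibitor of NF-kappaB signalling that binds in the Tie2 pathway, with a log2 fold change of 0.35 ± 0.12 (SE; adjusted p of 0.733 in edgeR) and no overlap. Foxo1, the transcription factor restrained by Tie2 signalling and an activator of Angpt2, had a value of 0.31 ± 0.18 (SE; adjusted p of 0.946 in edgeR). The integrin genes Itgb1 (430 to 595 FPKM) and Itga5 (40.3 to 58.6 FPKM) were the most abundant there.

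In the apelin system, 3 of 4 genes beside Apln had an unadjusted p under 0.05, all with a lower mean in mutant hearts, and the median log2 fold change was -0.61. Apela, which encodes the second ligand of the apelin receptor, was at 19.3, 18.3 and 19.1 FPKM in wild type and at 11.4, 7.44 and 11.2 FPKM in mutant hearts. All mutant hearts lay below all wild type hearts, and Apela was above Apln in every heart on this scale. Its log2 fold change was -0.89 ± 0.18 (SE; adjusted p of 0.289 in edgeR and 0.00224 in DESeq2). Mme, which encodes neprilysin, a peptidase that cleaves apelin among other peptides, was at 7.47, 5.96 and 4.83 FPKM in wild type and at 3.25, 3.51 and 3.27 FPKM in mutant hearts. The groups of Mme did not overlap, and its log2 fold change was -0.83 ± 0.16 (SE; adjusted p of 0.276 in edgeR, 0.00442 in DESeq2, and 0.0404 in edgeR without wild type replicate 5). The receptor gene Aplnr was at 8.49, 11.3 and 11.1 FPKM in wild type and at 6.55, 8.77 and 7.81 FPKM in mutant hearts, overlapping at wild type replicate 2. Its log2 fold change was -0.39 ± 0.16 (SE; adjusted p of 0.858 in edgeR and 0.807 in DESeq2).

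**Figure D5:**
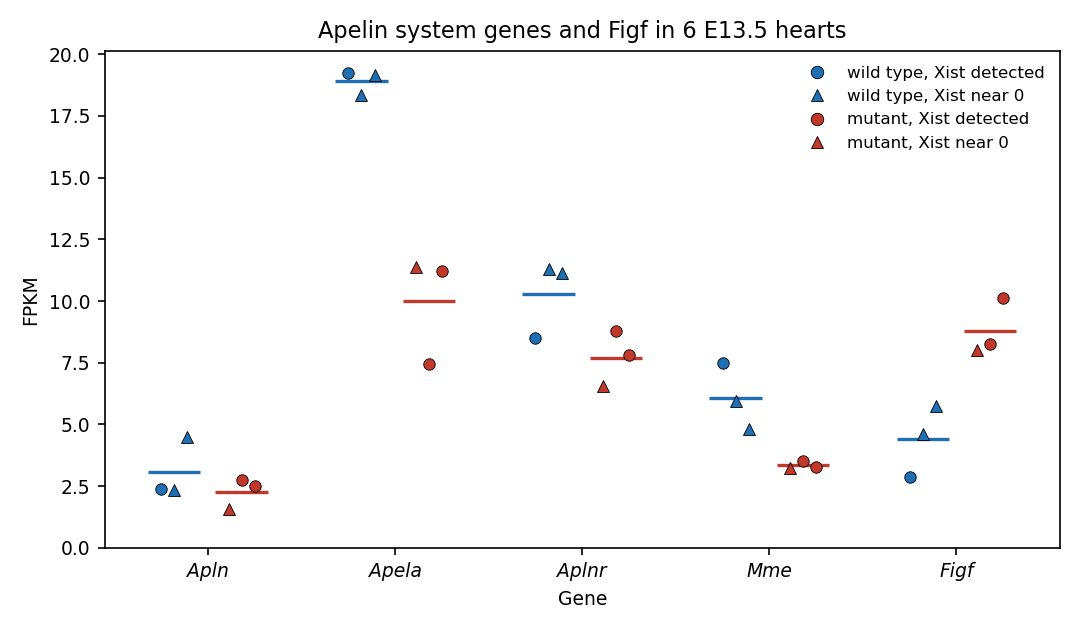
FPKM (linear axis from 0) of the apelin system genes Apln, Apela, Aplnr and Mme and of Figf in each heart, with colours, symbols and lines at group means as in the plot of the 10 genes. The groups overlap for Apln and Aplnr and are apart for Apela, Mme and Figf.

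Of 14 hypoxia response genes, regulators and targets of the same kind as Vegfa, 1 had an unadjusted p under 0.05, beside 5.73% of all genes. The median log2 fold change was 0.066, and 0.15 without wild type replicate 5. The gene with a p under 0.05 was Adm, the vasodilator peptide adrenomedullin, with a log2 fold change of -0.57 ± 0.18 (SE; adjusted p of 0.688 in edgeR) and no overlap. Epas1, which encodes the endothelial hypoxia factor HIF2alpha, had a value of 0.43 ± 0.19 (SE; adjusted p of 0.895 in edgeR). The glycolytic genes Ldha (1773 to 2237 FPKM) and Pgk1 (846 to 1092 FPKM) were the most abundant of the list. Among 13 arterial and coronary artery genes 1 had an unadjusted p under 0.05, beside 5.73% of all genes. The median log2 fold change of this list was -0.045, with 6 genes above 0 and 7 below. The gene with a p under 0.05 was the Notch target Hey1, at -0.45 ± 0.16 (SE; adjusted p of 0.765 in edgeR). Gja5, the connexin 40 gene of arterial endothelium and atrial and trabecular muscle, had a value of 0.29 ± 0.14 (SE; adjusted p of 0.917 in edgeR) and was at 82.4 to 117 FPKM in wild type and 118 to 125 FPKM in mutant hearts, the most abundant gene of the list before the arterial ligand Efnb2 (27.6 to 41.0 FPKM).

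Among 10 venous and capillary genes 4 had an unadjusted p under 0.05, beside 5.73% of all genes, and the median was 0.010. Of the 4, 3 were lower, and 1 of these was Aplnr, which is counted in the apelin system too. The higher one, Emcn, is also counted among the 10 other endothelial markers. Car4, a membrane carbonic anhydrase of capillary endothelium, was at 6.71, 6.32 and 2.50 FPKM in wild type and at 1.10, 0.959 and 0.887 FPKM in mutant hearts, with a log2 fold change of -2.37 ± 0.39 (SE; adjusted p of 0.166 in edgeR, 3.12e-06 in DESeq2, and 0.00589 in edgeR without wild type replicate 5). Nr2f2, the venous fate factor COUP-TFII that atrial muscle also expresses, had a value of -0.35 ± 0.12 (SE; adjusted p of 0.762 in edgeR). The fatty acid binding protein gene Fabp5 (95.02 to 137 FPKM) and the transferrin receptor gene Tfrc (46.1 to 64.4 FPKM) were the most abundant. Of 17 endothelial transcription factor genes, 1 had an unadjusted p under 0.05, beside 5.73% of all genes. Of the 17, 15 had a log2 fold change above 0, beside 8699 of all 17473 genes, with a median of 0.12. The gene with a p under 0.05 was Sox7, at 0.41 ± 0.15 (SE; adjusted p of 0.762 in edgeR), and Erg followed at 0.28 ± 0.12 (SE; adjusted p of 0.885 in edgeR). Ets2 (60.6 to 90.2 FPKM) and Elk3 (39.5 to 61.1 FPKM) were the most abundant. Without wild type replicate 5, Ets1 (-0.036), Gata2 (-0.070), Klf2 (-0.063), Mef2c (-0.052) and Etv2 (-0.47) were also below 0.

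The 10 other endothelial markers were detected in every heart. Their summed level was 451 to 526 FPKM in wild type and 521 to 546 FPKM in mutant hearts, with a median log2 fold change of 0.21, 7 of the 10 being above 0 and 3 below. Below 0 were Cldn5 (-0.55), Egfl7 (-0.28) and Robo4 (-0.20), and without wild type replicate 5 Cldn5 was at 0.13 and Egfl7 at 0.19. The 2 with the smallest p were Ramp2, a co-receptor of adrenomedullin, at 0.24 ± 0.088 (SE; adjusted p of 0.778 in edgeR), and the sialomucin Emcn at 0.25 ± 0.10 (SE; adjusted p of 0.847 in edgeR), and the TGF-beta co-receptor gene Eng was the most abundant (89.2 to 138 FPKM). When these 10 markers served as the library size, the median over the receptor, ligand and junction genes was 0.085, and 0 of 10 passed the test. Summed endocardial markers were at 175 to 278 FPKM in wild type and 243 to 290.3 FPKM in mutant hearts, with wild type replicate 5 again the lowest, and lymphatic markers at 37.6 to 43.0 and 37.4 to 49.6 FPKM. The smallest p in these lists belonged to Gpr182 (log2 fold change of 0.39) and Cytl1 (0.65) and to Pdpn (0.28) and Lyve1 (0.62), each with an adjusted p of 0.781 or more in edgeR, and the most abundant were Plxnd1 (118 to 197 FPKM) and Npr3 (22.5 to 38.8 FPKM) and, with Pdpn, Prox1 (10.3 to 17.1 FPKM).

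Markers of other cell types, some of which express these genes, are given beside them. The summed level of 8 macrophage markers was 51.4 to 70.2 FPKM in wild type and 88.97 to 98.02 FPKM in mutant hearts, and 7 of the 8 were free of overlap between groups, beside 11.2% of all genes, led by C1qa (log2 fold change of 0.98, adjusted p of 0.259 in edgeR and 0.000313 in DESeq2) and C1qb (0.76, adjusted p of 0.301 in edgeR and 0.00522 in DESeq2). Without wild type replicate 5 the adjusted p in edgeR was 0.0241 for C1qa and 0.0423 for C1qb. Summed megakaryocyte and platelet markers, which belong to cells that also carry Pecam1 and store Angpt1, were at 29.1 to 43.7 FPKM in wild type and 47.8 to 67.9 FPKM in mutant hearts, and 5 of the 7 were free of overlap, led by Ppbp (1.98, adjusted p of 0.273 in edgeR and 2.5e-05 in DESeq2), with Pf4 (13.9 to 35.8 FPKM) and Itga2b (9.34 to 16.8 FPKM) the most abundant. The part of these cells in the values of Pecam1 and Angpt1 was not tested. Epicardial markers summed to 109 to 178 FPKM in wild type and 92.6 to 135 FPKM in mutant hearts, and 1 of 5 was free of overlap, the epicardial and fibroblast factor Tcf21 at -1.10 ± 0.15 (SE; adjusted p of 0.113 in edgeR and 1.66e-07 in DESeq2, and 0.0349 in edgeR without wild type replicate 5), whereas Aldh1a2 was at -0.26 ± 0.36 and the mesothelial gene Upk3b at 22.1 to 58.8 FPKM. Mural cell markers, of pericytes and smooth muscle cells, summed to 442 to 557 FPKM in wild type and 504 to 553 FPKM in mutant hearts. These cells are among the sources of Angpt1, and its sources were not separated here. Of the mural markers, 0 of 6 had an unadjusted p under 0.05. Cspg4 (0.26) and Abcc9 (0.29) had the smallest p, and Acta2 (406 to 517 FPKM) had the highest level. Cardiomyocyte markers, of the tissue label and a main source of Vegfa, summed to 25063 to 26466 FPKM in wild type and 25915 to 26619 FPKM in mutant hearts, and the smallest p belonged to the atrial light chain gene Myl7 at -0.48 ± 0.20 (SE; adjusted p of 0.86 in edgeR) and to Myl2 at 0.21, while Actc1 (8078 to 10345 FPKM) was the most abundant.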

How the data were processed

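RNA from 6 whole hearts was sequenced as pairs of reads. Per the study's methods, the authors trimmed reads with Trim Galore (0.4.3.1), aligned them to mm10 with STAR (2.6.0b-2) and assigned uniquely mapped reads to genes with featureCounts (Rsubread 1.28.1), while the submitters' processing notes name HTSeq. The deposited counts were raw, and in the FPKM values the authors deposited each is the count over 1 length per gene and the heart's total count. No column of the used tables was left unmapped. A table of group means and the duplicate tables without names were not used.

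Counts were tested with edgeR 4.0.16 (R 4.3.3), quasi-likelihood, TMM, filterByExpr (count minimum 10, total 15), no covariates, two-sided, with Benjamini-Hochberg adjustment over all genes and a threshold of 0.05. Standard errors derive from the F statistic, and 95% intervals from it and the t distribution. The fit was tested on simulated data. Settings tried were DESeq2 1.42.0, limma 3.58.1 (voom, and trend on log2 FPKM with 1 or 0.1 added), RLE factors, library totals alone, no filter, a length correction (loess span 0.5), Xist as a covariate and each heart left out. Added after seeing the data were a length and GC correction, endothelial markers as library size, the length correction without wild type replicate 5, values split by Xist and the order by exon bases. Ratios were compared by exact permutation.

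The 10 genes, the 15 lists and the tests were chosen with earlier results of these data known. Named are the 10 genes, in each list the 2 genes with the smallest p and the 2 with the highest mean FPKM, and the genes most like them by Pearson's r (mean log2 CPM over 2). Wt1, Ddx3y, Cldn5, Egfl7, Robo4, Gm17473, Ets1, Gata2, Klf2, Mef2c and Etv2 were named after their values were seen. A gene that the rule names is not reported here.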

Additional observations from a re-analysis of the deposited data

How the results depend on the processing

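None of the 10 genes had an adjusted p under 0.05 in any of the 18 other settings, which were the other tools, scalings and filters, the covariate, the corrections and each heart left out. Over all genes the count of calls, 0 in the edgeR fit, was 132 with DESeq2, 34 without a filter on low counts, 6 with the length correction, 9 with the length and GC correction, 9 with endothelial markers as library size and 40 without wild type replicate 5 under the length correction. Leaving out 1 heart at a time gave 0 to 44 calls, the 44 without wild type replicate 5. The log2 fold change of Vegfa was -0.18 to 0.050 with 1 heart left out and 0.039 without wild type replicate 5 under the length correction. Angpt1, at 0.014, was at -0.011 on both FPKM scales, at -0.013 with library totals alone, -0.012 with Xist as a covariate, -0.062 with the length correction, -0.076 with length and GC, -0.17 with endothelial markers as library size, and at -0.063 to 0.10 with 1 heart left out. Apln was at 0.0098 without wild type replicate 5 under the length correction. The log2 difference of Flt1 to Kdr was -0.032 to 0.085 with 1 heart left out. The endothelial marker scaling moved the median of all genes to -0.19, and that of the 10 genes to 0.085. The cause of these changes was not tested.

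Counts were lowest for Angpt2 and Apln, with 120 to 334 and 250 to 625 per heart, whereas the other 8 genes had 1406 to 13619. Their spread between hearts was also the widest of the 10. In wild type hearts the SD was 59.0% of the mean CPM for Angpt2 and 41.3% for Apln. Whole-heart RNA mixes cell types, and embryo sex by Xist and Ddx3y differs between hearts. The size of the receptor and junction differences depends on wild type replicate 5, the lowest heart, and also on mutant replicate 5. No paired analysis was possible because no pairing of hearts was given in the sources used here. The replicate number 5 that both groups share is not a pair label.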
